A study of Mus musculus with 18 samples.

Results

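The genes described here are 6 enzymes, Arg1, Cbr3, Enpp2, Car4, Ckmt1 and Cyp1a1, out of 10965 genes in the deposited expression table of a mouse embryonic stem cell (ESC) study of the transcription factor Zeb2. They were picked by name for large differences between Zeb2 knockout and control cells in this same table, so the differences themselves are given as a description, with no test. The study compared ESCs of genotype Zeb2 -/- (Zeb2 KO) with ESCs carrying floxed but intact alleles (Zeb2 fl/fl, Ctrl), all labelled as strain CD1, on d0, d4 and d6 of neural differentiation. Each of the 6 groups held 3 RNA sequencing libraries, 18 in all. On d0 the cells grew without feeders in 2i+LIF, the defined medium that holds ESCs in the naive ground state. They were then moved to medium with 15% serum to form embryoid bodies, floating aggregates of differentiating cells, and from d4 they received N2B27 medium with retinoic acid at 500 nM. Ctrl and Zeb2 KO were cultured alike. The libraries of a group came from independent experiments, as the study states, and which ESC lines or clones were sequenced is not given in the sources used here. Embryoid bodies are mixtures of cell types, and each library is an average over them.

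The 6 enzymes come from different corners of metabolism. Enpp2 (autotaxin) is a secreted lysophospholipase D that makes the signalling lipid lysophosphatidic acid, and Car4 is a carbonic anhydrase tethered to the outer cell surface that interconverts carbon dioxide and bicarbonate. Arg1 is the cytosolic arginase of the urea cycle, which splits arginine into ornithine and urea, and Ckmt1 is the ubiquitous mitochondrial creatine kinase, which charges creatine with phosphate from ATP. Cbr3 is a short-chain dehydrogenase that reduces carbonyl compounds with NADPH, and Cyp1a1 is the cytochrome P450 best known as a target of the aryl hydrocarbon receptor (Ahr). Zeb2 is a zinc finger protein that mostly represses transcription and binds pairs of CACCT sequences.

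Zeb2 itself followed the labels. Its 3 Ctrl libraries lay at 0.123 to 0.138 TPM on d0, 1.23 to 1.47 TPM on d4 and 7.53 to 7.81 TPM on d6, where TPM is a level per transcript corrected for transcript length and sequencing depth. The Zeb2 KO libraries lay at 0.0171 to 0.0274, 0.126 to 0.204 and 0.594 to 0.733 TPM, and on each day every Zeb2 KO library lay below every Ctrl library. The libraries held 9622622 to 15617675 reads over the genes of the table, with a median of 12131165. The summed level of 7 pluripotency markers was 1376 to 1547 TPM in Ctrl and 4601 to 5047 TPM in Zeb2 KO on d6, and that of 7 neural markers was 457 to 527 TPM in Ctrl and 93.4 to 111 TPM in Zeb2 KO. In Zeb2 KO on d0 the neural sum was 103 to 117 TPM. Tubb3 makes up much of that sum, at a mean of 78.0 TPM on d0 and 37.2 TPM on d6 in Zeb2 KO, while Nes was at 24.0 and 50.1 TPM and Sox1 at 5.53 and 10.9 TPM. On d6 the means of all 7 neural markers were lower in Zeb2 KO than in Ctrl, among them Pax6 at 0.825 against 34.6 TPM, although both groups are labelled as neural progenitors. On d0 the median difference between genotypes was 0.08, 0.33 and 0.36 on the log2 scale for genes of chromosomes 6, 8 and 12. On every other chromosome it was between -0.17 and -0.05 that day. On d4 the medians of chromosomes 6, 8 and 12 were -0.24, -0.20 and -0.18, beside -0.16 over all genes. On d6 they were -0.17, -0.15 and -0.18, beside -0.14. The upward shift was thus seen on d0 only, and its cause was not tested. None of the 6 enzyme genes lies on those 3 chromosomes.

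A gene is called changed here when limma, fitted to log2(TPM + 1) over all genes, gave a Benjamini-Hochberg adjusted p below 0.01 and an absolute log2 difference above 1. Below, a called gene rose or fell from Ctrl to Zeb2 KO on the day named, and not over time. The SE given with a difference comes from the same fit, with 1 moderated spread for each gene over all 18 libraries. It is thus the same on all days and does not show the spread of a single day. Of all genes, 4.37% were called on d0, 9.71% on d4 and 15.5% on d6. On d0, 1.61% were higher and 2.76% lower in Zeb2 KO. These shares were 2.13% and 7.58% on d4, and 4.61% and 10.9% on d6. The split into higher and lower depended on the scaling. The main counts were 176 higher and 303 lower on d0, 234 and 831 on d4, and 506 and 1197 on d6. After quantile normalization they were 150 and 160, 452 and 525, and 947 and 860. Median-ratio rescaling gave 325 and 630 on d4 and 674 and 930 on d6. The median difference over all genes was -0.07, -0.16 and -0.14 on the 3 days, and either rescaling brought it to between -0.03 and 0.02.

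Arg1, Cbr3, Enpp2 and Car4 were further apart between genotypes on d4 and d6 than on d0. Ckmt1 was higher in Zeb2 KO on all 3 days, with the largest difference on d6, and Cyp1a1 was furthest apart on d0 (plot of TPM by library). On d0, the 3 Zeb2 KO libraries lay above the 3 Ctrl libraries for 4 of the 6 genes and the libraries overlapped for the other 2. Of all genes, 51.5% had no overlap on d0, 19.9% with Zeb2 KO above and 31.5% with it below. On d4 they lay above for 4, below for 1 and overlapped for 1, against 65.7% of all genes without overlap (20.0% above and 45.7% below). On d6 they lay above for 5 and below for 1, against 63.7% of all genes (22.7% above and 41.1% below). The genes were chosen on these comparisons, so nothing is read from those counts.

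**Figure D1:**
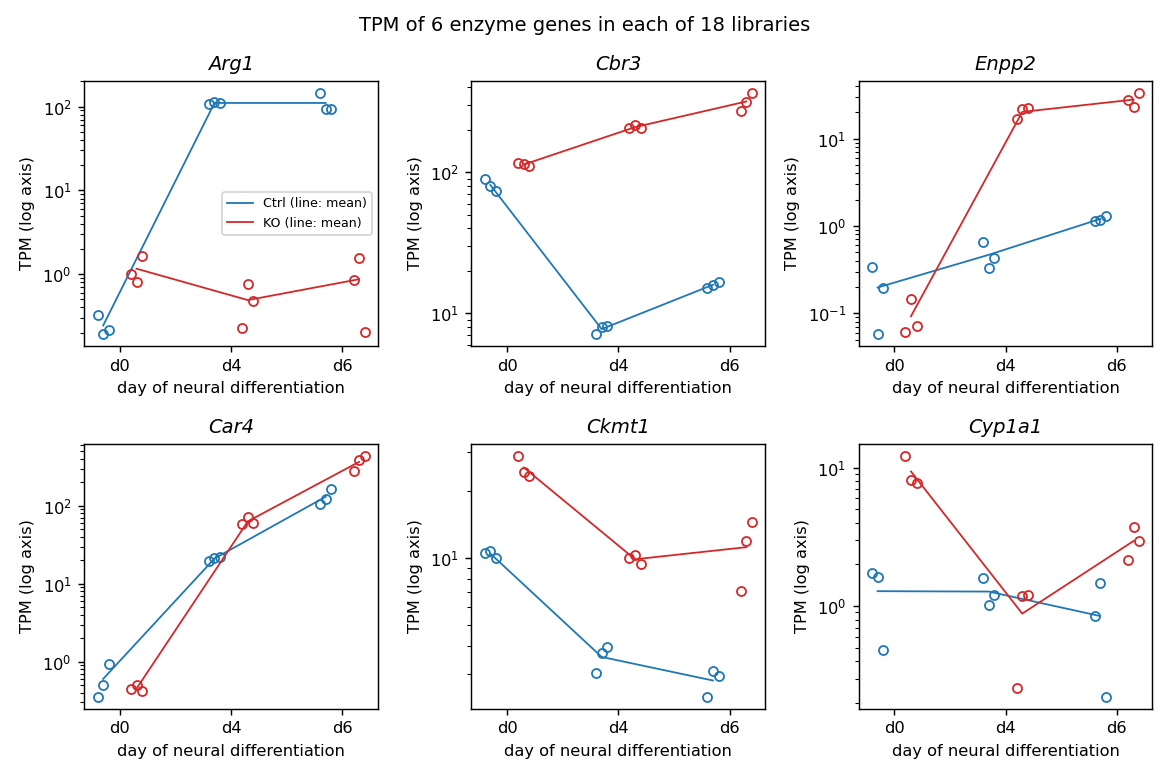
TPM (log axis) of each enzyme gene in each library by day, with open circles for libraries (3 in each group), blue for Ctrl, red for Zeb2 KO, and lines joining group means. Arg1 stood near 111 TPM in Ctrl on d4 and d6 and between 0.193 and 1.67 TPM in the other groups, while Cbr3 and Enpp2 stood higher in Zeb2 KO on both of those days.

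**Figure D2:**
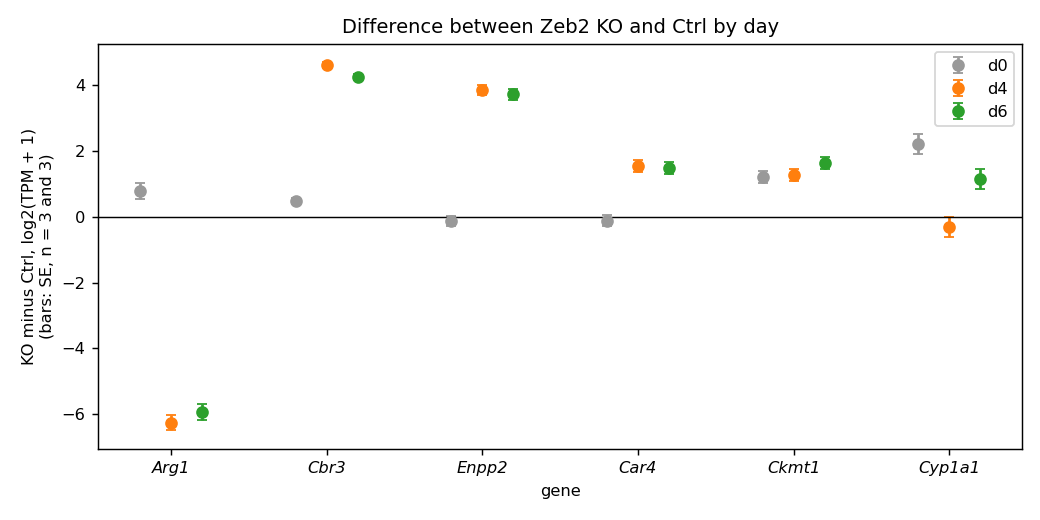
Difference between Zeb2 KO and Ctrl in mean log2(TPM + 1) for each enzyme gene on d0 (grey), d4 (orange) and d6 (green), with 3 libraries in each group. Bars show the SE from the limma fit to all 18 libraries, which is the same on all 3 days for a gene. Arg1 lay at -6.24 and -5.94 on d4 and d6, Cbr3 at 4.59 and 4.22 and Enpp2 at 3.85 and 3.70.

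Enpp2 was almost silent in every Ctrl library and in Zeb2 KO on d0, and clearly present in Zeb2 KO from d4. The gene lies on chr15:54838901-54952892, minus strand, in GRCm38, and overlaps the non-coding RNA gene Gm26684 on the other strand, which was not analysed here. In Ctrl the 3 libraries held 0.340, 0.0578 and 0.193 TPM on d0, 0.649, 0.326 and 0.428 TPM on d4, and 1.13, 1.18 and 1.30 TPM on d6. In Zeb2 KO they held 0.0605, 0.145 and 0.0715 TPM on d0, 16.7, 21.7 and 22.2 TPM on d4, and 27.4, 23.3 and 33.2 TPM on d6. The libraries overlapped on d0 and stood well apart on both later days, and the smallest Zeb2 KO value of d4 exceeded the largest Ctrl value of any day. The means were 0.468 ± 0.166 and 20.2 ± 3.02 TPM on d4 (SD, n = 3 each), a log2 difference of 3.85 (SE 0.15), number 3 from the top of 10965 genes. On d6 the means were 1.20 ± 0.0866 and 28.0 ± 4.98 TPM (SD, n = 3 each) and the difference was 3.70 (SE 0.15), number 9 from the top.

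Few reads stood behind the low values. Ctrl had 8 reads and Zeb2 KO 2 on d0, so that the d0 level of Zeb2 KO was 0.268 times that of Ctrl per read sequenced (95% exact binomial interval 0.0277 to 1.34). Such intervals are no test of the genotypes. They pool the reads of 3 libraries and cover counting error only, since reads without molecular identifiers are not independent molecules. A library with 0 reads allows up to 3 reads, or 0.173 to 0.215 TPM for Enpp2. From d0 to d4 the Enpp2 reads of Zeb2 KO went from 2 to 930, a ratio of 504 (139 to 4171) per read sequenced. In these bulk libraries, fewer cells that express a gene and less RNA per cell cannot be told apart. The summed pluripotency markers were also higher in Zeb2 KO on both days, at 5920 to 6381 against 3310 to 4059 TPM on d4, and their part in the Enpp2 difference was not tested.

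The Enpp2 neighbourhood held other genes that were higher in Zeb2 KO. Of the 3 other measured genes within 250 kb, Mal2, 236054 bp away, differed by 1.80 on d4 and 1.85 on d6 on the log2 scale. Deptor, an inhibitor of mTOR 159425 bp away, differed by 0.87 and 1.78. Taf2, which is nearest, differed by -0.06 and -0.13. These neighbours were looked at because of their position, and no test was made over them.

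Among other genes of lysolipid signalling, calls went in both directions. The list held 30 measured genes besides Enpp2 of 44, covering the Enpp family, the receptors for lysophosphatidic acid and sphingosine-1-phosphate and the enzymes that make or break down lysolipids. On d0, 0 were higher and 1 was lower, on d4 1 was higher and 3 lower, and on d6 3 were higher and 5 lower. The share called over all genes was 4.37%, 9.71% and 15.5% on these days. The list median was 0.12, -0.32 and -0.29, beside -0.07, -0.16 and -0.14 over all genes. Lpar1, a receptor for lysophosphatidic acid, fell on d4 from 14.0 ± 1.17 to 4.64 ± 0.532 TPM (SD, n = 3 each), a log2 difference of -1.41 (limma, adjusted p 2.18e-08). Lpar3, another receptor for the same lipid, fell on d6 from 13.5 ± 1.72 to 1.28 ± 0.428 TPM, a log2 difference of -2.68 (limma, adjusted p 1.01e-08). Pla1a, a phospholipase that makes lysophosphatidylserine, rose from 4.76 ± 1.04 to 11.1 ± 1.81 TPM on d4, a difference of 1.07 (limma, adjusted p 0.00032). On d6 Pla1a rose from 3.00 ± 1.41 to 10.8 ± 1.62 TPM, a difference of 1.61 (limma, adjusted p 3.92e-06). The d4 call for Pla1a was lost without replicate 3 of either Ctrl (0.94) or Zeb2 KO (0.95). With a pseudocount of 5 in place of 1, the calls for Pla1a on d4 (0.72) and d6 (0.99) and for Lpar1 on d4 (-0.97) were lost.

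Car4 was near 0 on d0 in both genotypes and stood among the higher levels of the table on d6. It lies on chr11:84957786-84966044, plus strand, and no annotated gene overlaps it. Its promoter is printed because Zeb2 binds CACCT. The window runs from 250 bases before to 50 bases after the RefSeq start, in the direction of the gene, at chr11:84957504-84957803 (GRCm38.p6, plus strand). Capitals mark the 1 CACCT, which lies on the other strand and so reads AGGTG, 164 bases before the start.
Car4 promoter: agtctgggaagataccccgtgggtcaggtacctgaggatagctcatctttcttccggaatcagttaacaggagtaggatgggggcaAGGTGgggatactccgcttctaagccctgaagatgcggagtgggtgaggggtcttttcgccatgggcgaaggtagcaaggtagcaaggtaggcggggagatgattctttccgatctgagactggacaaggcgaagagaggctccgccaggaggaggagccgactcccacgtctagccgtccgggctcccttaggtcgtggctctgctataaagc
The 3 motifs searched on both strands of these windows were CACCT, its longer form CACCTG and GCGTG, the core bound by Ahr with its partner Arnt. Of 32851 mouse promoter windows of this length, 51.9% hold CACCT, 20.2% hold CACCTG and 32.4% hold GCGTG. Such matches describe letters in the sequence only.

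The Ctrl libraries held 0.355, 0.507 and 0.942 TPM of Car4 on d0, 19.7, 21.7 and 21.9 TPM on d4, and 107, 123 and 163 TPM on d6. The Zeb2 KO libraries held 0.443, 0.495 and 0.418 TPM on d0, 58.4, 71.6 and 59.9 TPM on d4, and 281, 383 and 440 TPM on d6. The libraries overlapped on d0, at 3 to 9 reads each, and every Zeb2 KO library lay above every Ctrl library on d4 and d6. On d4 the means were 21.1 ± 1.26 and 63.3 ± 7.21 TPM (SD, n = 3 each), a ratio of 3.00 and a log2 difference of 1.54 (SE 0.17). On d6 they were 131 ± 29.0 and 368 ± 80.6 TPM (SD, n = 3 each), a ratio of 2.80 and a log2 difference of 1.48 (SE 0.17). The ratio of genotypes was therefore much the same on d4 and d6 while the level in both was higher on d6. From d4 to d6 the mean was 6.22 times higher in Ctrl and 5.81 times higher in Zeb2 KO. In Zeb2 KO on d6 Car4 exceeded 96.4% of all genes, against 86.2% in Ctrl. The d0 difference of -0.12 had no stable sign, at 0.09 after quantile normalization.

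Other carbonic anhydrases and the transporters of bicarbonate, protons and lactate were called in both directions. Of 16 measured genes besides Car4 of 28, 0 were higher and 1 lower on d0, 1 higher and 4 lower on d4, and 2 higher and 5 lower on d6. The share called over all genes was 4.37%, 9.71% and 15.5% on these days. The list median was -0.13, -0.25 and -0.26. Car3, a muscle-type cytosolic carbonic anhydrase of low activity, fell on d4 from 6.04 ± 1.42 to 0.575 ± 0.20 TPM (SD, n = 3 each), a log2 difference of -2.15 (limma, adjusted p 3.54e-07). On d6 Car3 fell from 23.2 ± 1.06 to 2.17 ± 1.06 TPM, a log2 difference of -2.98 (limma, adjusted p 3.56e-09). Car14, a membrane-spanning member of the family, was higher in Zeb2 KO on d4 and lower on d6. Its means were 4.73 ± 1.54 in Ctrl and 14.0 ± 3.09 TPM in Zeb2 KO on d4, a difference of 1.41 (limma, adjusted p 4.28e-05). On d6 they were 47.6 ± 2.25 and 15.2 ± 4.37 TPM, a difference of -1.62 (limma, adjusted p 6.38e-06). Slc4a5, a sodium bicarbonate cotransporter, rose on d6 from 5.71 ± 0.337 to 14.8 ± 1.19 TPM, a difference of 1.24 (limma, adjusted p 6.15e-09). With a pseudocount of 5, the calls for Car3 on d4 (-0.98), Car14 on d4 (0.97) and Slc4a5 on d6 (0.89) were lost.

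Arg1 was on in Ctrl embryoid bodies and at the edge of detection in Zeb2 KO ones. It lies on chr10:24915221-24927484, minus strand, with no overlapping gene. In Ctrl the libraries held 0.324, 0.193 and 0.215 TPM on d0, 109, 112 and 111 TPM on d4, and 145, 94.2 and 92.6 TPM on d6. In Zeb2 KO they held 1.01, 0.806 and 1.67 TPM on d0, 0.228, 0.767 and 0.474 TPM on d4, and 0.854, 1.55 and 0.203 TPM on d6. The order of the genotypes thus turned over, since every Zeb2 KO library was above every Ctrl library on d0 and below every one on d4 and d6. Behind this were 620 to 653 reads in each Ctrl library of d4 and 0 to 3 reads in each Zeb2 KO library, and on d6 470 to 577 against 0 to 7. The means on d4 were 111 ± 1.74 and 0.490 ± 0.270 TPM (SD, n = 3 each), a log2 difference of -6.24 (SE 0.24), number 2 from the bottom of 10965 genes. On d6 they were 111 ± 29.9 and 0.870 ± 0.675 TPM (SD, n = 3 each), and the difference of -5.94 (SE 0.24) was number 13 from the bottom.

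Per read sequenced, Arg1 on d4 was 352 times higher in Ctrl than in Zeb2 KO, with a 95% exact binomial interval of 137 to 1292 from 1895 and 4 reads. In Ctrl the reads went from 1 on d0 to 1895 on d4, a ratio of 1632 (293 to 64500). On d0 there were 1 read in Ctrl and 14 in Zeb2 KO, a ratio of 15.0 (2.28 to 633). In a library without reads the limit of 3 reads was worth 0.578 to 0.685 TPM, so the d4 and d6 values of Zeb2 KO are near what these libraries could detect. In the spread among libraries, the 3 Ctrl values of d4 lay within 109 to 112 TPM, while on d6 replicate 1 stood above the other 2.

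The summed mesoderm markers had the same direction as Arg1, mainly through Meox1. Of 8 listed mesoderm markers 4 were measured, and their summed level was 2.19 to 6.31 TPM in Ctrl on d0, 199 to 244 on d4 and 174 to 231 on d6. In Zeb2 KO the sum was 2.34 to 4.90 TPM on d0, 9.82 to 12.7 TPM on d4 and 22.2 to 26.4 on d6. Most of it was Meox1, a homeobox gene of somite mesoderm, at 208 TPM in Ctrl and 0.917 TPM in Zeb2 KO on d4, while Foxc2 was at 3.95 and 0.527 TPM, Twist1 at 12.2 and 9.68 TPM and Hand1 at 0.327 and 0.210 TPM. Arg1 is also a familiar gene of alternatively activated macrophages, but Cd68 was the only macrophage marker measured of 8, at 12.5 to 14.5 TPM in Ctrl and 18.2 to 21.2 TPM in Zeb2 KO on d4. The direction was not particular to mesoderm, since summed neural, visceral endoderm and trophectoderm markers were also lower in Zeb2 KO on d4 and d6. On d4 they were 287 to 343, 26.6 to 29.6 and 74.3 to 83.1 TPM in Ctrl. In Zeb2 KO they were 212 to 227, 12.3 to 23.1 and 20.9 to 29.6 TPM. Single markers did not all follow their sum. On d4 Afp, Ttr, Apoa1 and Amn of 9 visceral endoderm markers, and Nes of 7 neural markers, had higher means in Zeb2 KO. Most of the trophectoderm sum that day was Tfap2c, at 75.1 TPM in Ctrl and 24.7 TPM in Zeb2 KO. Sums for pluripotency and for blood and endothelium were higher in Zeb2 KO on d4 and d6, and those for fibroblasts and muscle overlapped. The blood and endothelium sum held only Pecam1 and Tek, 2 of 8 listed genes, and was larger on d0, at 45.6 to 48.7 TPM in Ctrl. In the fibroblast sum on d6, Thy1 was at 5.19 TPM in Ctrl and 32.8 TPM in Zeb2 KO, while Col1a1, Col1a2 and Pdgfrb were lower in Zeb2 KO. The part of any of these cell types in the Arg1 difference was not tested.

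The rest of arginine and polyamine metabolism was called in both directions on d4 and d6. Of 20 measured genes besides Arg1 of 34, 0 were called on d0, 1 was higher and 1 lower on d4, and 2 were higher and 1 lower on d6. Over all genes the share called was 4.37%, 9.71% and 15.5% on these days, so nothing is read from the counts. The list median was -0.13, 0.22 and 0.22, beside -0.07, -0.16 and -0.14 over all genes. Slc7a3, a cationic amino acid transporter that carries arginine into the cell, rose on d4 from 53.9 ± 0.192 to 144 ± 15.4 TPM (SD, n = 3 each), a difference of 1.39 (limma, adjusted p 5.05e-09). On d6 Slc7a3 rose from 10.0 ± 1.33 to 102 ± 5.05 TPM, a difference of 3.23 (limma, adjusted p 9.26e-14). Smox, spermine oxidase, fell on d6 from 16.1 ± 0.978 to 5.58 ± 0.740 TPM, a log2 difference of -1.38 (limma, adjusted p 3.11e-08). Ddah1, which degrades methylated arginines that inhibit nitric oxide synthase, fell on d4 from 21.0 ± 1.56 to 9.62 ± 0.504 TPM, a log2 difference of -1.05 (limma, adjusted p 9.58e-08). The Ddah1 call was lost after median-ratio rescaling (-0.88), after quantile normalization (-0.78) and without Ctrl d4 replicate 2 (-0.99). With a pseudocount of 5 it was lost as well (-0.83), and so was that of Smox (-0.997).

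Ckmt1 was higher in Zeb2 KO on all 3 days, already in the ground state, and lower after d0 in both genotypes. It lies on chr2:121357714-121363737, plus strand, and overlaps Strc on the other strand, which was not analysed here. Whether the reads were counted by strand is not given in the sources used here, so reads of Strc could be among those of Ckmt1. RefSeq gives 2 start sites, and the window of the second, at chr2:121358360-121358659 (GRCm38.p6, plus strand), is printed because it holds CACCT, in capitals, 46 bases before the start. The window of the other start, chr2:121357526-121357825, holds none of the 3 motifs.
Ckmt1 promoter, second start: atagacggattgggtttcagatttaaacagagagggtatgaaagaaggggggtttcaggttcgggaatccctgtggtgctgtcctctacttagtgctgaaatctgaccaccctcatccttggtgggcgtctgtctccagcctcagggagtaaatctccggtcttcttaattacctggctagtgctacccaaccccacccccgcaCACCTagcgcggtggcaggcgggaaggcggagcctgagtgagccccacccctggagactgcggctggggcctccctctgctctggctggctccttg
The table gives 1 value for the gene and does not tell which start was used.

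The Ctrl libraries held 10.6, 10.8 and 10.0 TPM of Ckmt1 on d0, 3.03, 3.73 and 3.98 TPM on d4, and 2.37, 3.11 and 2.93 TPM on d6. The Zeb2 KO libraries held 28.8, 24.4 and 23.4 TPM on d0, 9.96, 10.3 and 9.35 TPM on d4, and 7.11, 11.9 and 14.6 TPM on d6. Every Zeb2 KO library lay above every Ctrl library of its day, with the widest spread in Zeb2 KO on d6, where replicate 1 was lowest. The log2 difference was 1.21 on d0, 1.25 on d4 and 1.63 on d6 (SE 0.18 each). The ratio of the means was 2.44, 2.75 and 3.99. After quantile normalization the log2 difference was 1.07, 1.65 and 2.12, and with voom on reads it was 1.32, 1.60 and 2.04. Leaving out 1 library at a time moved the d6 difference between 1.43 and 1.90, the latter without Zeb2 KO replicate 1. From d0 to d4 the mean went from 10.5 ± 0.388 to 3.58 ± 0.494 TPM in Ctrl and from 25.5 ± 2.91 to 9.86 ± 0.460 TPM in Zeb2 KO (SD, n = 3 each), so that Zeb2 KO on d4 and d6 stood near Ctrl on d0.

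Other genes of creatine and phosphate transfer gave 2 calls on d0 and 1 each on d4 and d6. Of 17 measured genes besides Ckmt1 of 27, 0 were higher and 2 lower on d0, 1 higher and 0 lower on d4, and 0 higher and 1 lower on d6. Of all genes, 4.37%, 9.71% and 15.5% were called on these days. The list median was -0.01, 0.13 and -0.02, and its sign on d0 and d6 was positive after both rescalings. Nme4, a mitochondrial nucleoside diphosphate kinase, rose on d4 from 78.0 ± 5.35 to 167 ± 13 TPM (SD, n = 3 each), a difference of 1.09 (limma, adjusted p 6.45e-07). Ak3, the adenylate kinase of the mitochondrial matrix, fell on d6 from 73.0 ± 2.45 to 35.4 ± 6.61 TPM, a log2 difference of -1.04 (limma, adjusted p 1.29e-05). That call was lost after median-ratio rescaling (-0.88), after quantile normalization (-0.97), with voom on reads (-0.96), with a pseudocount of 5 (-0.96) and without Zeb2 KO d6 replicate 1 (-0.88).

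The time course of Cbr3 ran in opposite directions in the genotypes, being lower after d0 in Ctrl and higher in Zeb2 KO. It lies on chr16:93683215-93690990, plus strand, with no overlapping gene. Its promoter window, chr16:93682969-93683268 (GRCm38.p6, plus strand), is printed because this gene had the highest difference of the table on d4, and it holds none of the 3 motifs.
Cbr3 promoter: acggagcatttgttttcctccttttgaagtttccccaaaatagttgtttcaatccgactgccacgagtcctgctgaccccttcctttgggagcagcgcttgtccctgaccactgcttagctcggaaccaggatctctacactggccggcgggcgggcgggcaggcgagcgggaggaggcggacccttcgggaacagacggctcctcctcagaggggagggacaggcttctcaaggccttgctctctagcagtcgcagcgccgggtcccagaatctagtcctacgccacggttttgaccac
The window covers these 300 bases only, and nothing follows from it about Zeb2 binding elsewhere.

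The Ctrl libraries held 89.6, 79.9 and 74.2 TPM of Cbr3 on d0, 7.14, 7.99 and 8.09 TPM on d4, and 15.2, 16.0 and 16.6 TPM on d6. The Zeb2 KO libraries held 116, 114 and 110.1 TPM on d0, 205, 217 and 205 TPM on d4, and 273, 315 and 364 TPM on d6. The libraries did not overlap on any day, and the gap on d0 was small beside the later ones. On d0 the means were 81.2 ± 7.82 and 113 ± 3.06 TPM (SD, n = 3 each), a log2 difference of 0.48 (SE 0.09). On d4 they were 7.74 ± 0.522 and 209 ± 7.44 TPM (SD, n = 3 each), a ratio of 27.0 and a log2 difference of 4.59 (SE 0.09), number 1 from the top. On d6 they were 15.9 ± 0.705 and 317 ± 45.6 TPM (SD, n = 3 each), a ratio of 19.9 and a difference of 4.22 (SE 0.09), number 4 from the top.

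Both sides of this gap are visible in the time course. In Ctrl the mean on d0 was 10.5 times that on d4, and in Zeb2 KO the mean on d4 was 1.84 times that on d0. In Ctrl on d4 Cbr3 exceeded 18.3% of all genes, and in Zeb2 KO 92.1%. Cbr1, a carbonyl reductase of the same family, lies 72710 bp away and differed by 0.31 on d4 and 0.32 on d6 on the log2 scale, and neither difference was called. The 4 measured genes within 250 kb of Cbr3 ranged from 0.20 to 0.36 on d4.

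Other carbonyl-reducing enzymes were called in both directions. Of 19 measured genes besides Cbr3 of 37, 0 were called on d0, 3 were higher and 2 lower on d4, and 2 were higher and 2 lower on d6. After either rescaling, 4 were higher and 1 lower on d6. Without rescaling, the share called over all genes was 4.37%, 9.71% and 15.5% on the 3 days. The list median was -0.05, -0.16 and -0.16, close to that of all genes, and it turned to 0.11 on d6 after quantile normalization. Hsd17b11, a lipid-droplet 17-beta-hydroxysteroid dehydrogenase, rose on d4 from 26.9 ± 6.08 to 76.2 ± 4.95 TPM (SD, n = 3 each), a difference of 1.49 (limma, adjusted p 2.22e-07). On d6 Hsd17b11 rose from 14.0 ± 1.03 to 115 ± 18.7 TPM, a difference of 2.94 (limma, adjusted p 3.36e-11). Dhrs3, which reduces retinaldehyde to retinol and is known to be induced by retinoic acid, fell on d4 from 31.1 ± 5.16 to 2.02 ± 0.194 TPM, a log2 difference of -3.40 (limma, adjusted p 1.08e-10). On d6 Dhrs3 was again lower in Zeb2 KO, going from 28.0 ± 3.10 TPM in Ctrl to 6.99 ± 1.41 TPM in Zeb2 KO, a log2 difference of -1.87 (limma, adjusted p 4.35e-08). Retinoic acid was added only from d4, after culture in serum medium, and its part in either Dhrs3 difference was not tested.

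Cyp1a1 differed most in the ground state, before differentiation began, and its libraries overlapped on d4. It lies on chr9:57687928-57703824, plus strand, with no overlapping gene. The RefSeq promoter window, chr9:57697363-57697662 (GRCm38.p6, plus strand), is printed because it holds both kinds of motif. Capitals mark CACCT 239 bases before the start, GCGTG 54 bases before it, and CACCT on the other strand (AGGTG) 25 bases before and 4 bases after it.
Cyp1a1 promoter: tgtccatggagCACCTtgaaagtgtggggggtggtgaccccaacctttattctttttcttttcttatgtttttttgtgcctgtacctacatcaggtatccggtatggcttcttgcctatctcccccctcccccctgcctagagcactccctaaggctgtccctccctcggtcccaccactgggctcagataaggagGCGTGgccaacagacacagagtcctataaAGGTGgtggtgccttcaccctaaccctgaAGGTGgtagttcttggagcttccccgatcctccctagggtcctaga
Of all promoter windows, 18.2% hold CACCT at 2 or more places. The annotation used for the gene's position begins upstream of this start. CACCTG occurs 0 times in the 5 windows found for 4 of the 6 genes.

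The Ctrl libraries held 1.73, 1.63 and 0.484 TPM of Cyp1a1 on d0, 1.59, 1.02 and 1.20 TPM on d4, and 0.850, 1.47 and 0.222 TPM on d6. The Zeb2 KO libraries held 12.2, 8.18 and 7.79 TPM on d0, 0.257, 1.19 and 1.20 TPM on d4, and 2.17, 3.72 and 2.97 TPM on d6. Every Zeb2 KO library lay above every Ctrl library on d0 and d6, and not on d4. On d0 the means were 1.28 ± 0.693 and 9.38 ± 2.42 TPM (SD, n = 3 each), from 3 to 18 reads in each Ctrl library and 57 to 106 in each Zeb2 KO library. The log2 difference was 2.21 (SE 0.30), number 5 from the top of all genes on d0. On d4 it was -0.31 (SE 0.30), and it was 0.08 after quantile normalization. On d6 the means were 0.848 ± 0.625 and 2.95 ± 0.776 TPM (SD, n = 3 each), a difference of 1.14 (SE 0.30) from 1 to 13 reads in each Ctrl library and 17 to 33 in each Zeb2 KO library. The gene was thus low throughout, and outside Zeb2 KO on d0 it exceeded at most 6.77% of all genes.

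Genes listed with the Ahr receptor were called higher on d0 and in both directions on d4 and d6. Besides receptor genes and targets, the list holds genes such as Hsp90ab1, Por and Cyb5a. Of 15 measured genes besides Cyp1a1 of 23, 1 was higher and 0 lower on d0, 1 higher and 1 lower on d4, and 1 higher and 2 lower on d6. Of all genes, 4.37%, 9.71% and 15.5% were called on these days, so no direction is read from so few calls. The list median was -0.12, 0.21 and 0.25. Ahr itself was at 8.91 ± 0.750 in Ctrl and 9.59 ± 0.719 TPM in Zeb2 KO on d0 (SD, n = 3 each) and was not called on any day. On d6, however, Ahr was at 9.37 ± 1.38 in Ctrl and 17.45 ± 1.21 TPM in Zeb2 KO. That difference of 0.84 (limma, adjusted p 9.45e-06) fell short of the fold minimum only. Nqo1, a quinone reductase induced by both Ahr and the oxidative stress factor Nfe2l2, was the 1 higher gene on all 3 days. It rose on d4 from 136 ± 24.1 to 317 ± 51.7 TPM (SD, n = 3 each), a difference of 1.22 (limma, adjusted p 2.35e-06). On d6 it rose from 21.2 ± 1.92 to 134 ± 9.02 TPM, a difference of 2.60 (limma, adjusted p 1.64e-10). On d0 the difference was 1.08 (limma, adjusted p 1.73e-05), on chromosome 8, whose genes had a median of 0.33 that day. Cyp1b1, the relative of Cyp1a1, fell on d4 from 12.5 ± 0.675 to 0.759 ± 0.373 TPM, a log2 difference of -2.97 (limma, adjusted p 1.39e-08). On d6 Cyp1b1 fell from 37.0 ± 1.96 to 2.82 ± 0.860 TPM, a log2 difference of -3.34 (limma, adjusted p 1.43e-09).

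Over all 6 lists, 117 of 193 listed genes other than the enzymes were measured. Of these, 5 were called on d0 (4.27%), beside 4.37% of all genes. On d4 it was 19 (16.2%), beside 9.71%, with 8 higher and 11 lower. On d6 it was 26 (22.2%), beside 15.5%, with 10 higher and 16 lower. The share on d0 was close to that of all genes, and no test of the lists against the rest was made.

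**Figure D3:**
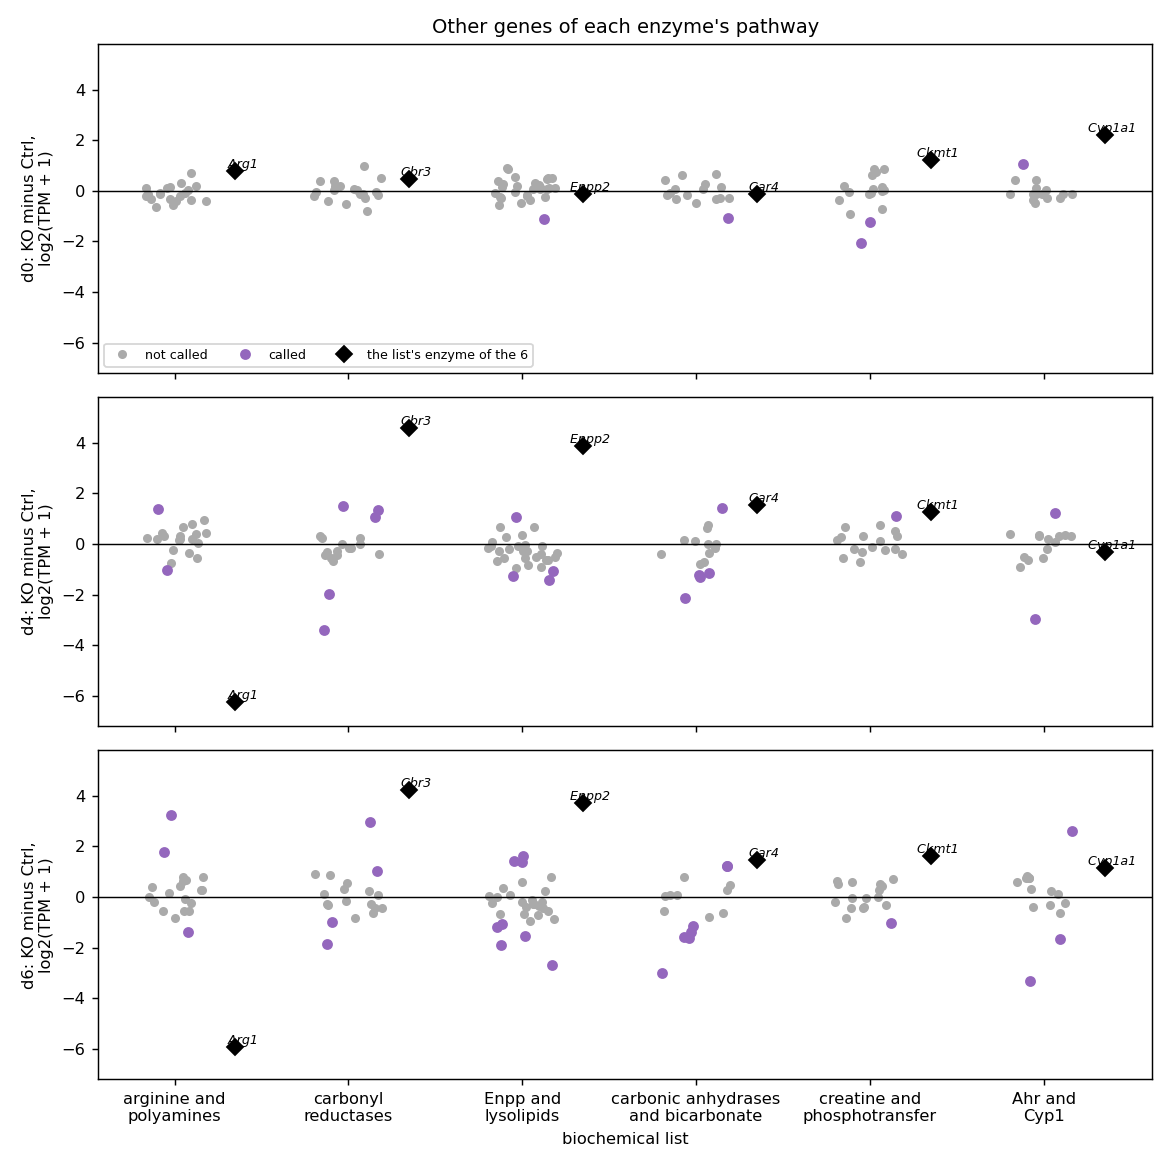
Difference between Zeb2 KO and Ctrl in mean log2(TPM + 1), by day, for the other genes of each biochemical list (grey not called, purple called by limma) and for the enzyme that each list was built around (black diamonds, with no call made). On d4 the diamonds of Arg1 (-6.24), Cbr3 (4.59) and Enpp2 (3.85) lay outside the spread of their lists. The enzymes were picked for large differences in these data, so nothing is read from that position.

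The 6 genes did not form 1 pattern. Over the 18 libraries, which share genotypes and days, Pearson's r of log2(TPM + 1) was -0.92 between Arg1 and Cbr3, the strongest pair. It was -0.84 between Arg1 and Ckmt1 and 0.75 between Enpp2 and Car4. It was also 0.75 between Cbr3 and Ckmt1 and 0.74 between Ckmt1 and Cyp1a1, while Enpp2 and Ckmt1 had 0.07. The order of the groups differed too. Cbr3 went from Zeb2 KO d6 at the top to Ctrl d4 at the bottom, with no overlap between any neighbours in that order. For Car4 the d0 groups overlapped and no other neighbours did. For Enpp2 Zeb2 KO d6 and d4 came first and Ctrl d6 next, each above the one after it, and the other 3 groups overlapped. For Ckmt1 Zeb2 KO d0 stood alone at the top, Zeb2 KO d6, Ctrl d0 and Zeb2 KO d4 overlapped in a middle class, and Ctrl d4 and Ctrl d6 overlapped at the bottom. For Arg1 the 4 low groups followed each other with overlap, and so did the 4 lowest groups of Cyp1a1.

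The genes most similar to each enzyme over the 18 libraries were of different kinds (map of mean levels). Arg1 was followed by Zfp703 (r 0.99), Meox1 (0.99) and Hoxb1 (0.99), a zinc finger gene and 2 homeobox genes of the embryonic axis. Enpp2 was followed by Dnmt3b (0.99), the de novo DNA methyltransferase, Trim67 (0.99) and Otx2 (0.99), a homeobox gene of the epiblast and forebrain. Car4 was followed by Kif1a (0.99), Cldn6 (0.99) and Pitpnm1 (0.99), of which Cldn6 is a tight junction protein of early epithelia. Cbr3 was followed by Txn1 (0.95) and Blvrb (0.95), enzymes of redox metabolism, and the pseudogene Npm3-ps1 (0.94), whose reads may come from its parent gene. Ckmt1 was followed by 1810009A15Rik (0.95), Ppp2r2c (0.94) and Atp1b1 (0.93), a subunit of the sodium pump. Cyp1a1 had the weakest matches, Ctsc (0.85), Sat1 (0.85) and Gm13420 (0.84). These correlations follow the group means of 6 groups and are given without a test.

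**Figure D4:**
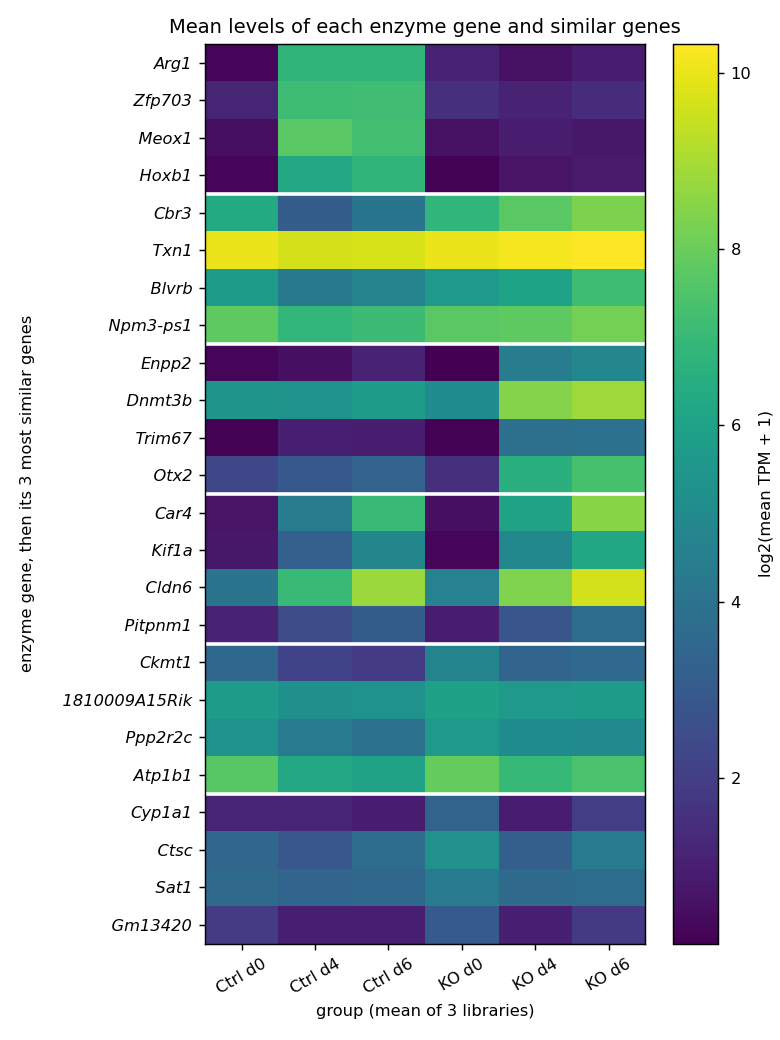
Colour map of log2(mean TPM + 1) in each of the 6 groups (columns, mean of 3 libraries) for each enzyme gene and, under it, its 3 most similar genes (rows). Arg1 and its 3 genes are brightest in Ctrl on d4 and d6, and Enpp2 and its 3 genes are brightest in Zeb2 KO on d4 and d6.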

How the data were processed

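RNA of 18 libraries was sequenced by the authors, aligned with TopHat2 2.0.13, counted with featureCounts 1.4.6 and tested with DESeq2, per the labels (mm10, GRCm38). The deposited table holds TPM computed by the authors. It lists 11046 entries, of which 81 repeated a gene identifier and were left out, leaving 10965 genes. Library sums of TPM were 880331 to 900309, since the authors had dropped short noncoding genes, genes of low level and the least variable genes, which raises the share of genes called. The deposited table also holds variability scores of each gene computed by the authors, which were not used. The low TPM values stepped in whole reads (tolerance 1e-05) for all 10965 genes after 1 added read, which was subtracted to give read numbers and intervals, while TPM values are printed as deposited. Because the values are not counts, differences were fitted with limma 3.58.1 (R 4.3.3, trend on) on log2(TPM + 1), a scale that understates changes of low genes, with 1 mean for each of 6 groups and Benjamini-Hochberg adjustment over all genes. The fit was tested on simulated data. Calls needed an adjusted p below 0.01 and an absolute log2 difference above 1.

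The members and lists were chosen with earlier results of these data known, and lists group genes by biochemical role. From each list, the called gene with the largest difference in each direction on d4 and on d6 is named, besides Cbr1 and Ahr, which were chosen after their values were seen, and for each enzyme the 3 genes of highest correlation. Replicates are independent experiments, as the study states. Positions are from GENCODE M21 and promoter windows from RefSeq. Alternatives were other pseudocounts, a level filter, 2 rescalings, voom on reads, no trend, single-day fits, a replicate block and leaving out each library.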

Additional observations from a re-analysis of the deposited data

Results flagged for a closer look

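The genes named from the lists were chosen for their differences on d4 or d6, so the following test is not independent of that choice. The difference between Zeb2 KO and Ctrl itself differed between days for several genes of the lists, by a limma test of the d6 difference minus the d0 difference adjusted over all genes. It was more positive on d6 for Slc7a3 by 3.62 (adjusted p 4.15e-12), Hsd17b11 by 2.55 (adjusted p 2.32e-08), Nqo1 by 1.53 (adjusted p 7.58e-06), Slc4a5 by 1.08 (adjusted p 2.61e-06) and Nme4 by 0.79 (adjusted p 0.000408). It was more negative for 8 genes, with limma values of -3.23 for Cyp1b1 (adjusted p 2.28e-07), -3.05 for Car3 (adjusted p 2.84e-07), -2.87 for Lpar3 (adjusted p 4.53e-07), -2.21 for Lpar1 (adjusted p 5.84e-09), -1.74 for Dhrs3 (adjusted p 7.82e-06), -1.44 for Car14 (adjusted p 0.000739), -1.29 for Smox (adjusted p 5.46e-06) and -0.87 for Ddah1 (adjusted p 2.46e-05). Pla1a at 0.71 (limma, adjusted p 0.0452) and Ak3 at -0.34 (limma, adjusted p 0.173) did not pass the threshold of 0.01. Over all genes 4789 passed an adjusted p of 0.01 in this contrast. Nqo1 lies on chromosome 8 and Slc4a5 on chromosome 6, which had the shifted medians on d0 given above.

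Arg1 was higher in all 3 Zeb2 KO libraries on d0 (log2 difference 0.78) and lower in all 3 on d4 (-6.24) and d6 (-5.94). The d0 side rests on 1 read in Ctrl and 14 in Zeb2 KO. This turn was not tested, since Arg1 was chosen on these differences.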

How the results depend on the processing

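No difference of the 6 enzymes that was set apart by its libraries changed sign under any alternative, and of 264 alternative values 218 moved by less than 1 SD and 46 by more. Over the pseudocounts, rescalings and voom, the difference ranged from -8.36 to -4.40 for Arg1 on d4, from 2.20 to 5.68 for Enpp2 on d4, from 1.19 to 3.11 for Cyp1a1 on d0 and from 0.44 to 2.43 on d6, with the smaller sizes at a pseudocount of 5 and the larger with voom. Of 325 alternative values for named list genes, 307 kept their call and 18 lost it. A pseudocount of 5 in place of 1 gave 160, 541 and 1041 called genes on d0, d4 and d6 in place of 479, 1065 and 1703, and 2, 9 and 15 list genes in place of 5, 19 and 26. A pseudocount of 0.1 gave 732 genes on d0. Keeping the 8396 genes with a mean of at least 10 TPM gave 299, 586 and 938. Quantile normalization gave 310 genes and 2 list genes on d0, and voom on the reads 8 list genes. Dropping the fold minimum, a choice made after seeing the data, gave 2960, 4988 and 5731. Leaving out 1 library at a time gave 3 to 6 list genes on d0, the lowest without Ctrl replicate 3. The cause of these shifts was not tested. Low reads limit Arg1 in Zeb2 KO and in Ctrl on d0, and Enpp2 and Car4 on d0. They also limit Enpp2 in Ctrl on d4 and d6, and Cyp1a1 in Ctrl on d0 and in both genotypes on d4 and d6.

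Same-numbered libraries of the genotypes were compared in their deviations from the group means (r 0.15, 0.15 and -0.08 on d0, 0.23, 0.19 and 0.05 on d4, 0.18, 0.21 and 0.02 on d6), and since not every pair was over 0.1 the numbers were not taken to pair the libraries. With replicate number as a block, 478, 1068 and 1700 genes and 5, 19 and 26 list genes were called, and 3806 and 4648 genes passed for the change of the difference from d0 to d4 and to d6, in place of 3957 and 4789.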
